A study of Mus musculus with 9 samples.

Results

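T-bet (encoded by Tbx21), Runx3, Stat4, Bhlhe40 and Irf8 are transcription factors of T helper 1 (Th1) cells, the CD4+ T cells that make interferon-gamma, and their loci are described here from mouse Th1 cells with and without Tbx21. The 5 genes were taken by name, out of 7189 genes named in any of the 5 deposited lists, and all 5 were found. Tbx21-/- cells carrying the T-bet-ZsGreen reporter (C57BL/6) and wild type cells carrying the same reporter (C57BL/6) were each used for 2 RNA-seq libraries, 1 H3K4me1 and 1 H3K27me3 ChIP-seq library. For T-bet ChIP-seq there was 1 library, of wild type cells. Naive CD4+ T cells of both genotypes were activated with irradiated splenocytes freed of T cells, in IL-2, IL-12 and an antibody against IL-4. The labels also give antibodies against CD3 (1 ug/ml) and CD28 (3 ug/ml) for every sample. Reporter-positive cells were sorted and expanded for 3 days, with IL-2 at 50 U/ml in the second culture. Cells of both genotypes were therefore chosen for activity of a reporter of Tbx21 expression, and its part in the Tbx21 level below was not tested. The labels do not say how many mice were used or which part of Tbx21 the mutant allele lacks.

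The lists hold 219 genes that were lower and 211 that were higher without T-bet, together with 3226 peaks of T-bet, 7669 regions of H3K4me1 and 3949 of H3K27me3, placed on mouse build mm9. A region is named for the closest gene chosen by the authors. H3K4me1 is a histone mark found at enhancers, and H3K27me3 a mark of Polycomb-repressed chromatin. Both histone lists name wild type and T-bet knockout together in their titles and give 1 tag count (reads in the region) per region. Neither the genotype of those tags nor the control behind the fold enrichment, which could be an input library or the other genotype, is stated. The sequencing depth is unknown, and no value has a replicate error. Marker genes of CD4+ T cells could not be checked by level, since 0 of 12 of them were on an expression list and the lists give levels only for listed genes.

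In the textbook account, IL-12 acts through the kinase-activated factor STAT4, which with interferon-gamma signalling raises T-bet. T-bet then works with RUNX3, a Runt-domain factor, to turn on Ifng and to silence Il4. BHLHE40, a basic helix-loop-helix repressor, lowers Il10 and favours interferon-gamma in Th1 cells, and IRF8 is an interferon-inducible factor best known from dendritic cells and macrophages.

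Promoter sequence of RefSeq (build GRCm38.p6) is shown for 4 of the 5 genes, as the ground on which such factors could bind. The sequence table held 7 windows for these 4 genes. Where a gene had 2 windows, the one holding a match was chosen for printing. Each sequence below is the 250 bases before an annotated start, 5′ to 3′ on the gene's strand, and capitals mark matches to the 5 motifs searched on both strands. These were TCACAC for the T-box core, ACCACA for RUNX, TTCNNNGAA for STAT, the IRF element (GAAA repeated after 2 free bases) and CACGTG for the E-box bound by BHLHE40.
Tbx21, chr11:97115332-97115581, minus strand: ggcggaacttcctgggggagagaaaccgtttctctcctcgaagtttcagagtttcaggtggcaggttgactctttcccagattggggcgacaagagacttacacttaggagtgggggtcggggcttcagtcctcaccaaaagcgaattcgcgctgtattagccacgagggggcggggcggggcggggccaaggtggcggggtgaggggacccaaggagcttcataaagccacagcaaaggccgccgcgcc
Runx3, upstream start, chr4:135120395-135120644, plus strand: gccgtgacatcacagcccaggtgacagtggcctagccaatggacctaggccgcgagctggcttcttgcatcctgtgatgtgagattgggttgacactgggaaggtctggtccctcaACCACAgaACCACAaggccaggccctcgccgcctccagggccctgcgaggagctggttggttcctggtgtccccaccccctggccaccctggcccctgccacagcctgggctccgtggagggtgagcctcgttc
Stat4, downstream start, chr1:52007990-52008239, plus strand: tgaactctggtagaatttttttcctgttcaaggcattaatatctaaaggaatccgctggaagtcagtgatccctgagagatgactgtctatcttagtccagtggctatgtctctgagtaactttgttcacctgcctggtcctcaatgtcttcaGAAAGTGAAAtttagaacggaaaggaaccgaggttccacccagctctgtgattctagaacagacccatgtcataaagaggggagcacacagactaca
Irf8, upstream start, chr8:120736108-120736357, plus strand: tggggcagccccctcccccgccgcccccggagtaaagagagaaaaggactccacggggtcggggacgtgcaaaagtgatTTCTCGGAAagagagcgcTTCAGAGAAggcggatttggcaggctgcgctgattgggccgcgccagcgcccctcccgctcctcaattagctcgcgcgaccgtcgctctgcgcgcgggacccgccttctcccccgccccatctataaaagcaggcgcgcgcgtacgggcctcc
The Runx3 window, at the upstream of 2 annotated starts, held 2 RUNX matches, at -134 to -129 and -126 to -121 counted from the base before the start as -1. The Irf8 window held 2 STAT matches, TTCTCGGAA at -171 to -163 and TTCAGAGAA at -153 to -145. The Stat4 window held 1 IRF match, GAAAGTGAAA at -97 to -88. No 2 matches overlapped each other in these windows. The Tbx21 window held no match to any of the 5 motifs, nor did the other Runx3, Stat4 and Irf8 windows, and the T-box core was in none of the 7. Of 32851 promoter windows of this length in the table, 14.0% held the RUNX letters, 7.02% the STAT, 2.98% the IRF, 12.3% the T-box and 6.02% the E-box letters. The windows belong to a later build than the peak positions, and no peak was placed relative to them.

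Tbx21, Bhlhe40 and Irf8 were among the genes listed as lower without T-bet, and Runx3 and Stat4 were on neither expression list. Thus 3 of the 5 genes were listed as lower, where 0.963% of 21900 coding genes were, and 0 were listed as higher, where 0.941% of coding genes were. These counts are a description, because the genes were chosen with earlier results known. Tbx21, counted among the 3, is also the gene deleted in these cells, so its listing cannot be separated from the design. Bhlhe40 and Irf8 are the genes listed as lower besides it. For Runx3 and Stat4 the lists give no FPKM value (a level scaled to transcript length and sequencing depth), so their levels and the size of any change are not shown here.

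Tbx21, the T-box factor itself, stood at 124 FPKM in Tbx21-/- cells and 271 FPKM in wild type cells. Bhlhe40 stood at 147 FPKM in Tbx21-/- cells and 290 FPKM in wild type cells. Irf8 stood at 39.2 FPKM in Tbx21-/- cells and 95.5 FPKM in wild type cells. All 3 were lower without T-bet, to 45.8% of the wild type FPKM for Tbx21, 50.9% for Bhlhe40 and 41.0% for Irf8, and the order of levels, Bhlhe40 over Tbx21 over Irf8, was that of both genotypes. Each is 1 value per genotype, taken to combine the duplicate libraries. Whether Bhlhe40 and Tbx21 differed from each other beyond replicate spread thus cannot be said. Tbx21 is the deleted gene and was lower in the cells labelled Tbx21-/-, but transcript was still counted there, and without knowledge of the deleted part its level checks the labels only in direction. The values are of bulk cultures, in which fewer cells expressing a gene and less transcript per cell cannot be told apart.

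These were among the smaller changes of the list, at abundant transcripts. In the authors' deposited table the log2 ratio (Tbx21-/- over wild type) was -1.25 for Irf8 and -1.11 for Tbx21, and that of Bhlhe40 equals a 2.00-fold lower level, while the median over the 219 genes of the list was -1.59. By size of change Irf8 ranked 154, Tbx21 187 and Bhlhe40 218 of 219, while by wild type FPKM over both lists Bhlhe40 ranked 13, Tbx21 15 and Irf8 39 of 430. Bhlhe40 thus sat at the edge of the list, with only Gzma, a granzyme gene, after it. From its 2 FPKM values Bhlhe40 was 1.97-fold lower in Tbx21-/- cells. It was 1 of 3 genes of the list whose FPKM values differed by under 2-fold.

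**Figure D1:**
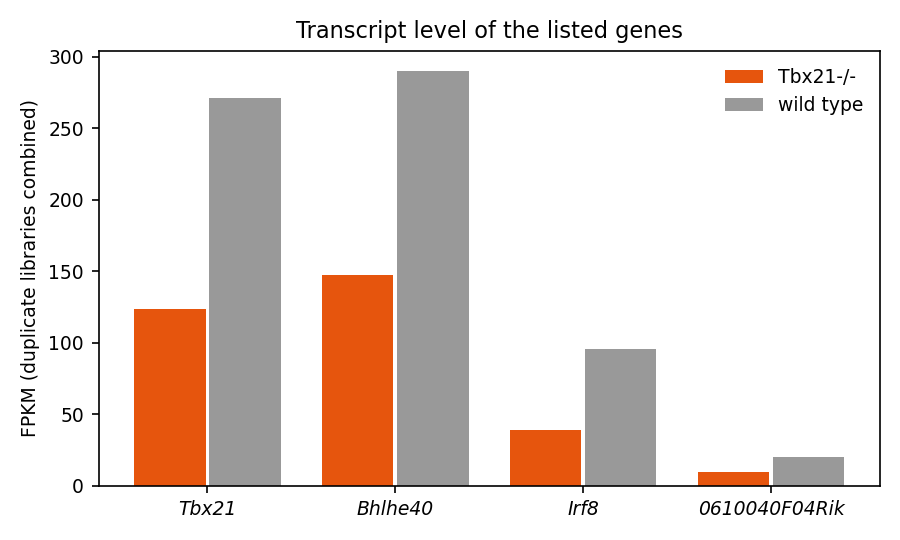
FPKM (y axis) of Tbx21, Bhlhe40 and Irf8 and of 0610040F04Rik, a noncoding neighbour of Bhlhe40, in Tbx21-/- (orange) and wild type (grey) Th1 cells. Each bar is 1 value per genotype, taken to combine 2 libraries, without error. Every orange bar is lower than its grey neighbour, by between 1.97-fold (Bhlhe40) and 2.44-fold (Irf8).

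Markers of other cells moved in both directions beside these changes. Of 26 markers of myeloid and dendritic cells, where Irf8 is also expressed, 0 were listed as lower and 6 as higher in Tbx21-/- cells, with a summed level of 247 FPKM in Tbx21-/- and 72.6 FPKM in wild type cells. The 6 were the antigen presentation genes H2-Aa, H2-Ab1, H2-Eb1, Cd74 and Ctss, which B cells also express, and Cebpb, while lineage markers such as Itgam, Csf1r, Lyz2, Flt3 and Xcr1 were on neither list. Of 15 B cell markers 1, Cd79a, was listed as higher and 1, Blk, as lower in Tbx21-/- cells. Cd79a stood at 5.36 FPKM in Tbx21-/- and 0.722 FPKM in wild type cells, and Blk at 4.82 FPKM in Tbx21-/- and 12.8 FPKM in wild type cells. Of 14 markers of cytotoxic (CD8 or NK) lymphocytes, which also express Tbx21 and Runx3, 3 were listed as lower (Cd8a, Gzma and Nkg7), with a sum of 380 FPKM in Tbx21-/- and 1303 FPKM in wild type cells. Most of that sum came from Gzma and Nkg7, effector genes that Th1 cells express too, and Nkg7 is also among the Th1 targets counted below. Cd8a, the lineage marker of the 3, stood at 19.1 FPKM in Tbx21-/- and 39.6 FPKM in wild type cells, and Cd8b1 and Ncr1 were on neither list. Levels of the unlisted markers are not given in the lists, and the part of such cells in the levels of Tbx21, Bhlhe40 and Irf8 was not tested.

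All 5 genes had a T-bet peak to their name, as did 10.4% of coding genes, and Runx3 and Stat4, the genes on neither expression list, had the most. They had 4 peaks each, Irf8 had 2, and Tbx21 and Bhlhe40 had 1 each, 12 in all. With Irf8, 3 of the 5 genes had more than 1 peak, where 2.00% of coding genes did. Having 4 or more peaks was seen at 0.205% of coding genes, and 51 of the 2492 genes named in the peak list had as many. All 3 genes that were lower in Tbx21-/- cells had a peak, as did 95 of the 211 coding genes listed as lower. Being both listed as lower and named for a peak was seen at 0.434% of coding genes. Fold enrichment varied widely within a gene, between 1.59 and 4.12 at Runx3 and between 1.69 and 6.27 at Stat4. Of the 12 peaks 8 lay above the median of all 3226 peaks in fold enrichment (the peak caller's own value over input), with a median of 3.25 against 2.63, and 8 lay above the median in tags. The 12 peaks carried between 6 and 21 tags each, against a median of 9 over all peaks, so each rests on few reads of 1 library. The caller's false discovery rate was between 0.22% and 1.69% for these peaks, where the median of the list was 0.28%.

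At Stat4, the IL-12-activated factor, lay the peak with the highest fold of the 12. It spanned chromosome 1 from 52076615 to 52077173 and was enriched 6.27-fold at 20 tags, and 96.2% of all peaks had a lower fold. It also had the highest false discovery rate of the 12, 1.69%, and 98.2% of all peaks were at or under that rate. A peak of 6 tags, the lowest tag count in the list, and 3.19-fold ended 27 bases before it, at 52076359 to 52076587. Further along, a peak at 52079052 to 52079462 had 10 tags and 1.69-fold, and one at 52091875 to 52092371 had 12 tags and 3.19-fold. The first 3 peaks formed a cluster, with 1878 bases after the second, and the fourth stood 12.4 kb away. By fold the one at 52079052 was the lowest of the 4, with a lower fold in 8.21% of all peaks.

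At Runx3, the Runt-domain partner of T-bet, the 4 peaks were spread over 40.3 kb of chromosome 4. The first, at 134636296 to 134636803, had 16 tags and 4.06-fold. The second, at 134659691 to 134660121, had 21 tags and 3.30-fold. The next peak, at 134664647 to 134664913, had 14 tags and 4.12-fold. These 3 were among the upper part of the list, with lower fold in 81.9%, 71.0% and 82.8% of all peaks. The fourth, at 134676224 to 134676584, had 9 tags and 1.59-fold, and 5.67% of peaks had a lower fold.

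Irf8, the interferon-inducible factor, had peaks far apart on both sides of its histone regions. The one at 123249240 to 123249615 of chromosome 8 had 8 tags and 2.52-fold. The one at 123411947 to 123412398 had 11 tags and 3.46-fold. They lay 162 kb apart, near the middle and in the upper part of the list. The single peak of Bhlhe40, the helix-loop-helix repressor, lay on chromosome 6 at 108610185 to 108610511, with 13 tags and 3.83-fold, above 79.6% of peaks in fold. The single peak of Tbx21, at 96992124 to 96992461 of chromosome 11, had 8 tags and 1.65-fold, and 7.25% of peaks had a lower fold. At the gene that encodes T-bet itself the fold was thus the second lowest of the 12.

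**Figure D2:**
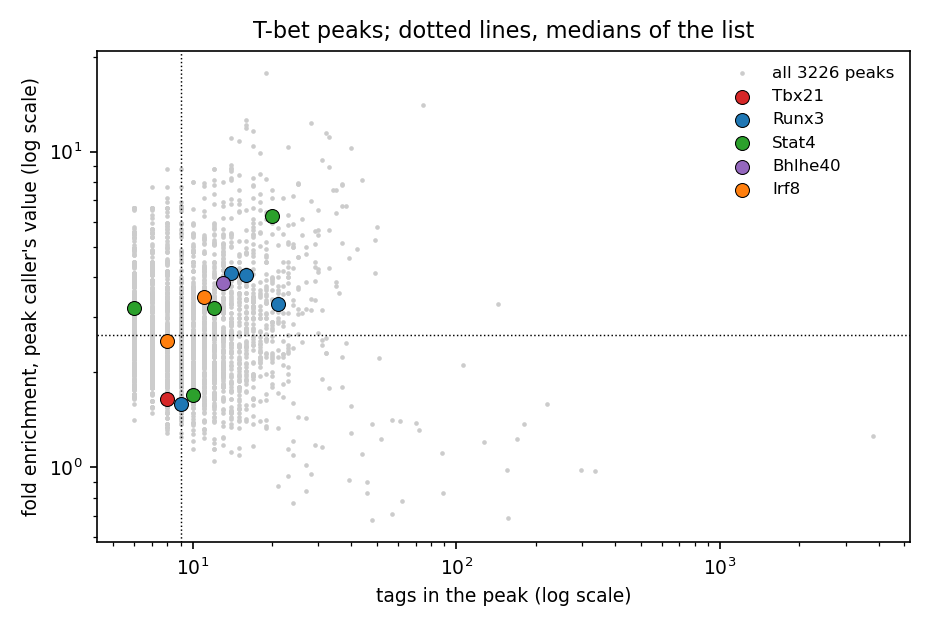
Tags (x axis, log scale) and fold enrichment (y axis, log scale) of all 3226 T-bet peaks in wild type Th1 cells (grey) and of the 12 peaks of the 5 genes (colours); dotted lines are the medians. A Stat4 peak lies highest at 6.27-fold, and the peak of Tbx21 and 1 peak each of Runx3 and Stat4 lie between 1.59-fold and 1.69-fold.

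Listed H3K4me1 regions were found at 4 of the 5 genes, where 17.2% of coding genes had one, and more listed sequence was named for Runx3 than for any other gene of the list. It had 21 regions, Irf8 had 6, Stat4 had 3, Tbx21 had 1 and Bhlhe40 had 0. These 4 genes had both a T-bet peak and an H3K4me1 region, which was so for 4.91% of coding genes. The Runx3 regions covered 54.2 kb in all, ahead of Gas7 with 37.8 kb, and held 3247 tags, rank 1 of 4173 genes by both sums. By number of regions 6 genes had more, and 0.0274% of coding genes had 21 or more, while 0.635% had the 6 of Irf8 or more. The median gene of the list had 1 region of 0.981 kb and 40 tags in all. How the regions were selected is not stated, so these sums describe the list and not all H3K4me1 at a locus.

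The Runx3 regions ran from 134609169 to 134752763, a span of 144 kb of which they covered 37.7%. Of the 21 regions 20 were longer than the median region of the list (688 bases) and 20 had more tags than its median of 27. Only 4 were above the median fold enrichment of 6.91. Long regions had low fold, as in the list as a whole, with a Spearman correlation of -0.49 between length and fold over the 21 regions and -0.63 over all 7669, where neighbouring regions share library and locus. The extreme was the region at 134718646 to 134726783, the second longest of the list with 8138 bases and the seventh by tags with 490, at a fold of 2.76 that only 0.104% of regions went below. The highest fold of the locus, 11.3, was at a region of 1383 bases with 54 tags, at 134690180 to 134691562. Along the chromosome, 16 regions followed each other from 134659443 to 134733482, with at most 4897 bases between neighbours.

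**Figure D3:**
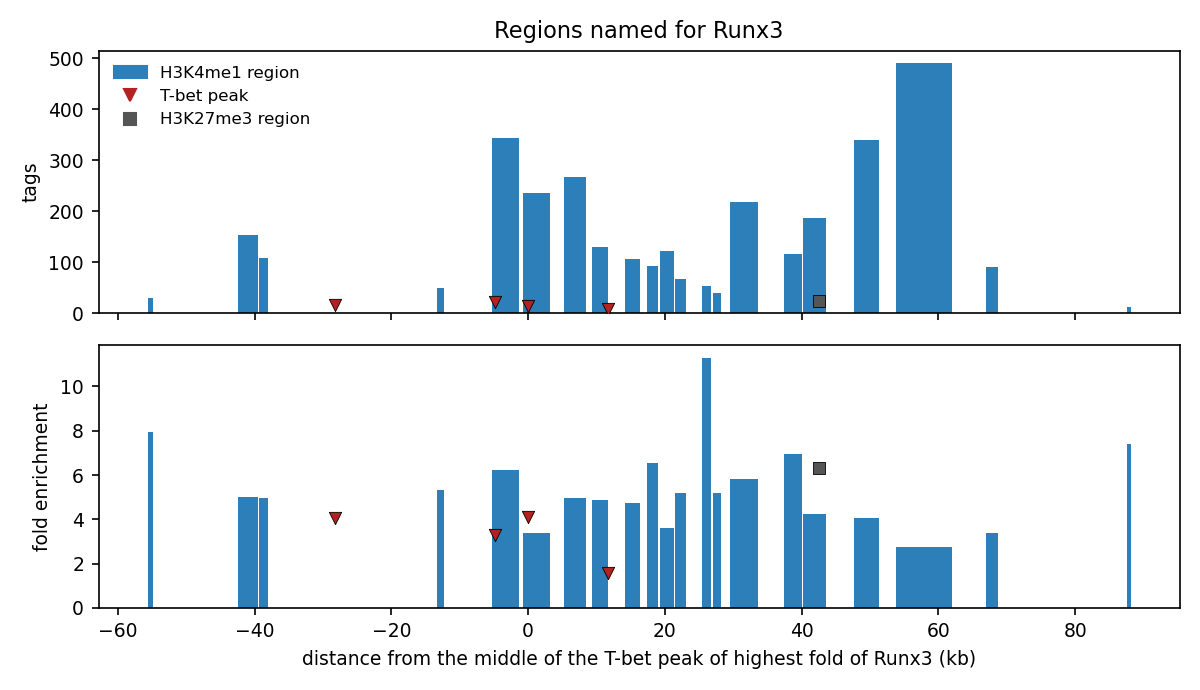
Tags (upper panel) and fold enrichment (lower panel) of the 21 H3K4me1 regions (blue bars, as wide as the region, with a minimum width), 4 T-bet peaks (triangles) and 1 H3K27me3 region (square) named for Runx3, by distance in kb from its T-bet peak of highest fold. The widest bar, with 490 tags, has the lowest fold of the H3K4me1 regions, 2.76; tags of different assays come from different libraries.

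Irf8 had its H3K4me1 regions in a stretch of 41.0 kb, from 123283873 to 123324866. The 3 at its far end, from 123321099 on, were separated by 68 and 186 bases and had folds of 9.18, 10.3 and 11.2. The other 3 had folds between 4.44 and 5.23, below the list's median. By covered length, 7.81 kb, Irf8 ranked 91 of 4173 genes. Tbx21 had 1 long region at 96957226 to 96960731, of 3506 bases and 169 tags, longer than 98.5% of the list, at a fold of 4.54. Stat4 had regions of 1095, 1314 and 633 bases, with 39, 41 and 39 tags and folds of 6.79, 4.54 and 8.47. Runx3, on neither expression list, thus had the most listed H3K4me1 of the 5 genes, and Bhlhe40, which was lower in Tbx21-/- cells, had none under its name.

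**Figure D4:**
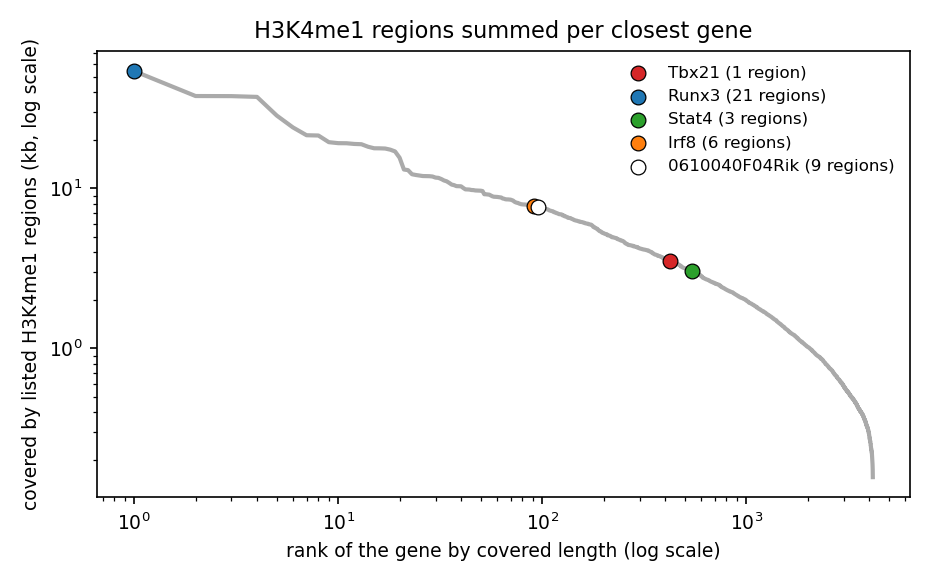
Length covered by listed H3K4me1 regions per closest gene (y axis, kb, log scale) against the rank of the gene (x axis, log scale); the grey line is all 4173 genes and the points are 4 of the 5 genes and 0610040F04Rik. Runx3 stands first with 54.2 kb, Irf8 has 7.81 kb, and Tbx21 and Stat4 have 3.51 and 3.04 kb.

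H3K27me3 regions were listed at 2 of the 5 genes, Runx3 and Irf8, with 1 each, where 11.8% of coding genes had at least 1. Both also had T-bet peaks and H3K4me1 regions, a combination seen at 1.69% of coding genes. The Irf8 region, at 123378080 to 123378870, had 32 tags and 4.17-fold, lay 53.2 kb beyond the H3K4me1 regions, and was among the weakest in fold, with 3.75% of regions lower. The Runx3 region, at 134706949 to 134707721, had 24 tags and 6.32-fold. It lay wholly inside an H3K4me1 region of 186 tags, at 134704916 to 134708332. Sharing at least 1 base with an H3K4me1 region was seen for 51 of 3949 H3K27me3 regions, or 1.29%. Since neither list tells the genotypes apart, it is not shown that both marks occurred in the same cells.

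T-bet peaks and H3K4me1 regions met at Runx3 and Stat4 and at none of the other 3 genes. At Runx3 3 of 4 peaks shared bases with a region, those at 134659691 and 134664647 lying wholly inside one and the fourth with 64.0% of its length. The first lay 9.57 kb from the nearest region. At Stat4 the fourth peak shared 208 bases with a region, and the other 3, that of highest fold included, lay between 2.07 and 4.95 kb from one. At Tbx21 the peak lay 31.4 kb from the nearest region, and the Irf8 peaks lay 21.9 and 87.1 kb away. In all 4 of 12 peaks, or 33.3%, shared at least 1 base with a region, beside 308 of 3226, or 9.55%, over the whole list, 3 of the 4 being from 1 gene. None of the 12 peaks shared a base with an H3K27me3 region, as was the case for all but 16 peaks of the list.

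Bhlhe40 looked poor in regions by name and not by position. Its one peak was surrounded by regions named for 0610040F04Rik, a long noncoding RNA gene that the RefSeq table of build GRCm38.p6 places beside Bhlhe40 with overlapping ends. That gene was named for 7 T-bet peaks, exceeded by 4 of 2492 genes, and for 9 H3K4me1 regions. Its peaks ran from 108485363 to 108636263 and the Bhlhe40 peak lay among them, with the next one, at 108615495 to 108615973, 13 tags and 1.83-fold. The one of highest fold, at 108485363 to 108485786, had 20 tags and 7.55-fold. The nearest H3K4me1 region to the Bhlhe40 peak was 8.94 kb away and was named for 0610040F04Rik. Within 100 kb on each side of the Bhlhe40 peak were 4 T-bet peaks and 11 H3K4me1 regions, 1 and 0 of them named for Bhlhe40. In such windows around all T-bet peaks the medians were 2 and 1, and the 90th percentile for T-bet peaks was 4. Some of the 11 regions were named for Arl8b, and the 7.55-fold peak lay outside the window. In the same window the peaks of highest fold of Runx3, Irf8, Stat4 and Tbx21 had 24, 3, 3 and 2 H3K4me1 regions, and the 90th percentile over all peaks was 6. The choice of peak matters at Irf8. Its other peak, at 123249240, had all 6 regions of Irf8 and 3 of the neighbouring gene Cox4i1 within that distance.

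The noncoding gene was lower in Tbx21-/- cells by nearly the same factor as Bhlhe40. It stood at 9.75 FPKM in Tbx21-/- cells and 19.8 FPKM in wild type cells, and its log2 ratio was -1.08 by the authors' deposited table. The counting is not stated to use strand, so reads where the 2 genes overlap cannot be told apart.

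**Figure D5:**
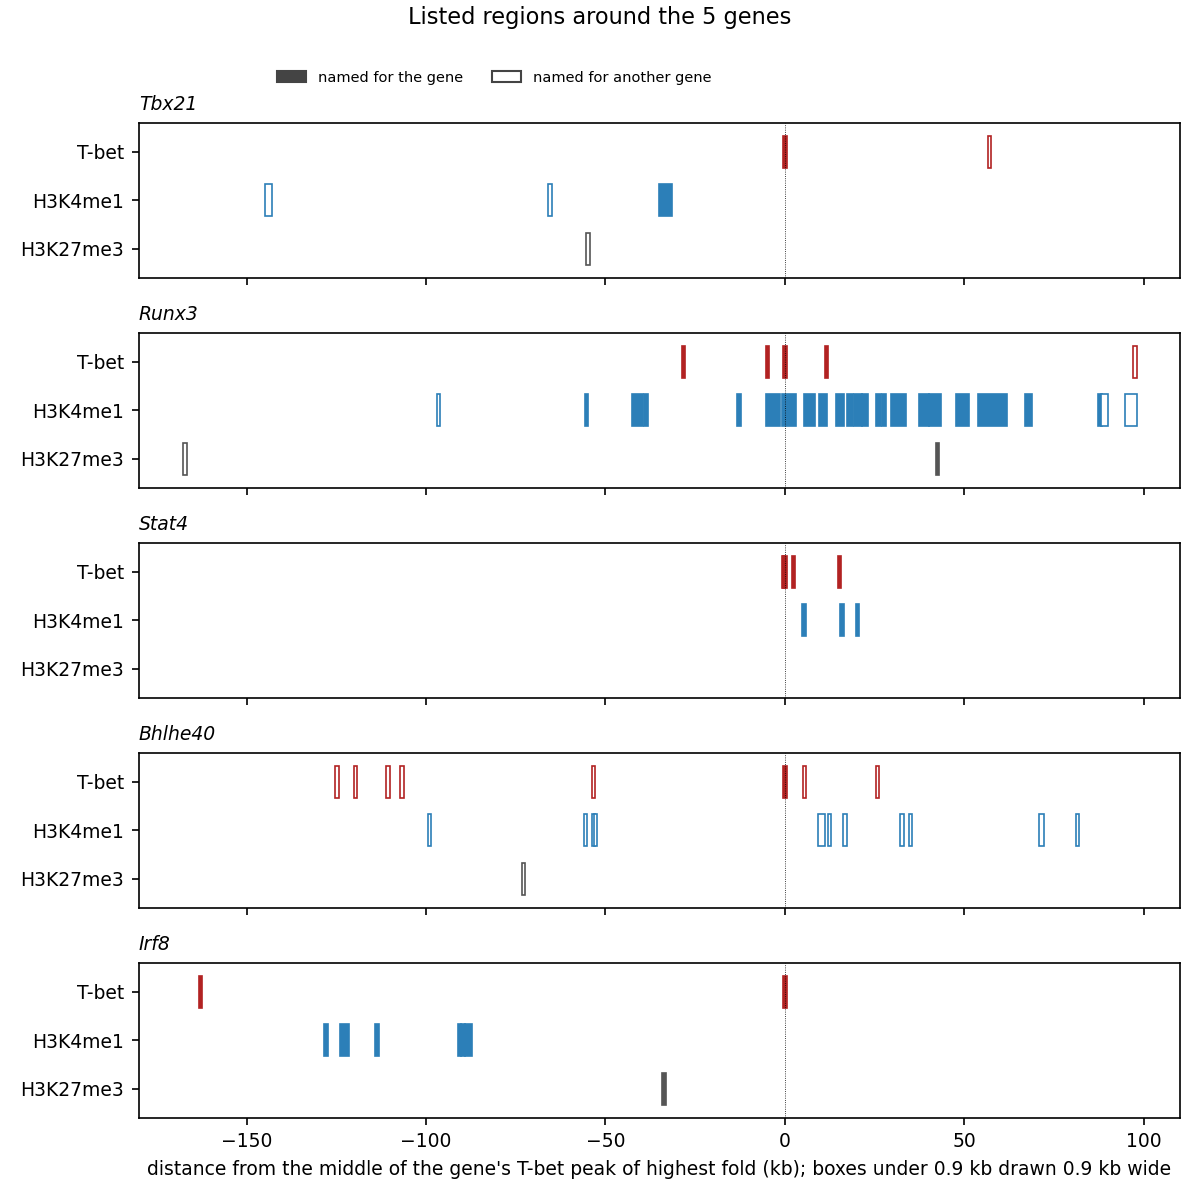
T-bet peaks, H3K4me1 and H3K27me3 regions (rows) around each of the 5 genes, by distance in kb from the middle of the gene's T-bet peak of highest fold; filled boxes are named for the gene and open boxes for another gene. Runx3 has a run of filled H3K4me1 boxes, Bhlhe40 has 1 filled box among open ones, and the 2 peaks of Irf8 lie 162 kb apart with the histone regions between them.

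No relative of the 5 genes among those looked up was on an expression list. These were 6 other genes of the RUNX family and its cofactors, 6 other STAT genes, 16 other T-box genes, 8 other IRF genes and 10 relatives of Bhlhe40. Over coding genes, 0.963% were listed as lower and 0.941% as higher, so the absence is near the share over all genes. T-bet peaks were named for some of the relatives. Runx1 had 4 and Runx2 had 5, close to the 4 of Runx3, while their H3K4me1 regions numbered 1 and 11 against 21. Stat3 and Stat5a had 1 peak each, against 4 at Stat4. Irf1 and Irf4, which act in T cell activation and effector fate, had 2 each, as many as Irf8, and Irf2 had 1. Eomes, the T-box factor of cytotoxic cells, had 0 peaks and 1 H3K27me3 region, and among the other 16 T-box genes 0 had a peak.

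Other factors of the Th1 program included 3 genes lower in Tbx21-/- cells. Of 17 Th1 factors and cofactors besides the 5 genes, these were Hlx, Hopx and Zbtb32, and 0 were listed as higher. Hopx, a homeodomain-like protein of effector Th1 cells, stood at 6.13 FPKM in Tbx21-/- and 115 FPKM in wild type cells, and Zbtb32, a zinc finger repressor, at 19.5 FPKM in Tbx21-/- and 48.1 FPKM in wild type cells. Of the 17 genes, 7 had a T-bet peak, 12 an H3K4me1 region and 9 an H3K27me3 region, where 10.4%, 17.2% and 11.8% of coding genes did. Ets1, an ETS factor that cooperates with T-bet, had 8 T-bet peaks, and Id2, an inhibitor of E proteins, had 6 peaks and 11 H3K4me1 regions. Of 21 factors of other T cell fates, 0 were lower and 7 were higher in Tbx21-/- cells, among them Tcf7, a factor of naive and memory T cells, at 55.7 FPKM in Tbx21-/- and 16.6 FPKM in wild type cells.

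Of 25 further genes of IL-12, IL-18, interferon and STAT signalling, 3 were listed as lower and 1, Ifngr2, as higher in Tbx21-/- cells. The 3 were the receptor genes upstream of or beside STAT4. Il12rb2, the inducible IL-12 receptor chain, stood at 24.4 FPKM in Tbx21-/- and 111 FPKM in wild type cells, whereas the IL-18 receptor chains were less changed. Il18r1 stood at 35.6 FPKM in Tbx21-/- and 95.0 FPKM in wild type cells, and Il18rap at 41.0 FPKM in Tbx21-/- and 85.9 FPKM in wild type cells. Of 20 genes known as Th1 targets of these factors, 15 were listed as lower and 1, Il4, as higher, and 17 had a T-bet peak. Over coding genes these shares were 0.963%, 0.941% and 10.4%. The median log2 ratio of the 16 listed targets in the authors' deposited table was -2.17, a larger change than that of Irf8, Tbx21 or Bhlhe40. These lists were chosen with the results known and carry no test.

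By their numbers of T-bet, H3K4me1 and H3K27me3 regions the genes most like Runx3, among 6758 genes on neither expression list, were Runx2, Id2 and Lpp, at distances of 0.913, 1.00 and 1.14 on the log2(1 + number) scale. Lpp had 4 peaks, 9 H3K4me1 regions and 1 H3K27me3 region, and the most H3K4me1 regions among the 3 genes were 11, against 21 at Runx3. Stat4 shared its counts of 4, 3 and 0 with Lrrc6 and Mbp. Among the other 218 positively regulated genes, those most like Irf8 were Slc24a3, Gcnt1 and Arsb, at distances of 0.193, 0.363 and 0.415. Tbx21 shared its counts of 1, 1 and 0 with 9 genes, of which Ifitm3, Lta and Ctsd had the nearest log2 ratios, and Bhlhe40 its counts of 1, 0 and 0 with 12, of which Ggct, B430306N03Rik and Ifit1 were nearest.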

How the data were processed

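RNA-seq, T-bet ChIP-seq and histone ChIP-seq of mouse Th1 cells were used as 5 lists deposited by the authors. Tools named by the submitters' processing notes, without roles, are Bowtie 0.12.7 and TopHat 1.3.3, CASAVA 1.7, MACS 1.4.1 and DESeq, on build mm9. Per the file headers, the expression lists give 1 FPKM value per genotype and a log2 ratio by the authors (Tbx21-/- over wild type). The labels give 2 libraries per genotype, so the duplicates are taken to be combined, which the headers do not state. Per the file headers, the region lists give the count of tags, the fold enrichment (a ratio over the caller's control) and, in the T-bet list, the false discovery rate as a percent. The T-bet control was Th1 input, per the labels; for the histone lists no source used here gives one. Regions under a selection that the files do not state are missing from the lists, which limits any count per gene. Positions are 1-based, since end minus start plus 1 equals the stated length.

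The 5 genes and the gene lists were chosen with earlier results of these data known, so counts are described and not tested. The test planned should the files give each library was not run, because each genotype has 1 FPKM value. Genes were matched to 21900 coding symbols of RefSeq GRCm38.p6, by symbol and unique synonym, for background shares. Besides the 5 genes, named genes come from these lists, from the 3 genes most like each one by the rule stated with them, or lead the length ranking. 0610040F04Rik, Gas7 and the H3K4me1 rank of Runx3 were singled out after their values were seen. Intervals met when they shared at least 1 base. Alternatives changed the expression scale, the peak and region filters and the overlap. Overlap and distance functions were tested on simulated intervals. Computations used SciPy 1.17.1, numpy 2.4.6 and pandas 2.3.3 under Python 3.11.15, and plots matplotlib 3.10.9.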

Additional observations from a re-analysis of the deposited data

How the results depend on the processing

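No paired analysis was possible because the files give 1 FPKM value per genotype and 1 library per genotype for each histone mark; for the same reason no replicate could be left out. On the scale of the FPKM values, with no pseudocount, with 1 and with 0.1 added, the log2 ratio was -1.13, -1.12 and -1.13 for Tbx21, -0.97 in each case for Bhlhe40, and -1.29, -1.26 and -1.28 for Irf8, so that Bhlhe40 fell short of 2-fold under each and no direction changed. With peaks of at least 2-fold enrichment, or with tags above the list's median, Tbx21 had 0 T-bet peaks, and under the tag limit Irf8 had 1. Under either limit Runx3 and Stat4 had 3 peaks each, so neither kept the 4 reported above. With H3K4me1 regions at or above the list's median fold, Runx3 had 4, Irf8 3, Stat4 1 and Tbx21 0, and under the same limit Runx3 and Irf8 had 0 H3K27me3 regions. When at least 50% of a peak had to lie inside an H3K4me1 region, Stat4 had 0 such peaks. When regions named for 0610040F04Rik were counted with Bhlhe40, an alternative chosen after seeing the data, Bhlhe40 had 8 T-bet peaks, 9 H3K4me1 regions and 1 H3K27me3 region. A false discovery rate of at most 5%, the tag limit on histone regions, a distance of 1 kb in place of overlap and a minimum of 10 FPKM left the counts of the 5 genes within 1.5 times the reported ones. Peaks of 6 to 21 tags from 1 library, and lists of unknown depth and selection, limit how firmly any difference between these genes can be read.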

Other observations

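Listed regions of neighbouring genes lay near some of the 5 genes. Within 150 kb of the outermost Runx3 regions, 3 H3K4me1 regions and 1 T-bet peak were named for Clic4, an intracellular chloride channel gene, and the first of these regions, starting at 134752837, began just after the last region of Runx3. In the same distance of Runx3, 1 H3K4me1 and 1 H3K27me3 region were named for Syf2. In that distance of Irf8, 3 H3K4me1 regions and 1 H3K27me3 region were named for Cox4i1, a cytochrome oxidase subunit gene. The gene 1110050K14Rik had 1 region of each mark there, and 0 T-bet peaks were named for any gene but Irf8. These neighbours were named after their values were seen.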
